A study of Homo sapiens with 8 samples.

Results

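The 39 genes described here encode the vacuolar proton pump and the proteins it serves: 16 subunits and accessory proteins of the V-ATPase and 23 proteins of the lysosome. They were taken by name from the 20453 genes counted in each library, and all 39 were found. The pump genes comprised 8 subunits of the V1 sector, 6 of the V0 sector and 2 accessory proteins. The other genes comprised 6 lysosomal membrane proteins, 7 proteases, 5 glycosidases and 5 genes of lipid handling. Expression was measured in a human leukaemia line labelled THP-1 and described as monocytic, after transduction with DNMT3A carrying the R882H substitution (mutant) or with wild-type DNMT3A (wild type). DNMT3A is a de novo DNA methyltransferase, and R882 is its recurrent mutation site in acute myeloid leukaemia. RNA-seq (mRNA) and ribosome profiling (footprints, the mRNA fragments that ribosomes shield from nuclease) were each made in 2 mutant and 2 wild-type libraries. The labels give neither the vector and its promoter nor the fate of the endogenous DNMT3A copies, and no untransduced cells were analysed here.

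The V-ATPase is a rotary pump. Its cytosolic V1 sector hydrolyses ATP, and the turning of a central stalk drives a ring of proteolipid c subunits in the membrane-bound V0 sector, which carries protons into the lumen. The acid that results activates lysosomal hydrolases, and glycoproteins such as LAMP1 and LAMP2 line the membrane that contains them. Many of these genes share a promoter element, the CLEAR motif, which is read by TFEB, TFE3 and MITF. The pump also serves as a platform for the Ragulator and Rag proteins that recruit mTORC1 when nutrients are plentiful.

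Libraries held 3901659 to 4393445 counts for mutant mRNA, 3415999 to 4523475 for wild-type mRNA, 603360 to 944824 for mutant footprints and 1611724 to 1988513 for wild-type footprints, and levels are given as counts scaled to library size within each assay (CPM). DNMT3A mRNA stood at 241 and 244 CPM in mutant cells and at 291 and 294 CPM in wild-type cells (edgeR, log2 fold change -0.27, adjusted p = 4.3e-06). Its footprints stood at 144 and 149 CPM in mutant cells and at 138 and 154 CPM in wild-type cells (edgeR, -0.0026, adjusted p = 0.99). These values do not separate introduced from endogenous copies. The labelled cell type was not borne out by its defining markers: S100A8, S100A9, FCN1, CD163, IRF8 and CCR2 were at 0 in all 8 libraries, and 3 of 15 monocyte and macrophage markers reached 10 CPM in all 4 mRNA libraries. All 16 erythroid and megakaryocyte markers did so, with summed mRNA levels of 2307 to 2377 CPM in mutant cells and 2790 to 2833 CPM in wild-type cells, and the part of that difference in the results given here was not tested. Footprint pairs differed by no more than sampling noise would give: chi-square per gene was 0.925 for mutant (p = 1) and 1.01 for wild type (p = 0.29). A pair therefore cannot be told apart from 1 library sequenced repeatedly. Footprint tests thus cover counting error, and the fold changes of called genes are also given with each pair summed and counted as 1 sample. For mRNA the pairs did differ beyond counting (1.33 for mutant and 1.08 for wild type), but no label ties replicates to separate cultures, so p-values cover the spread between libraries alone, which may be technical.

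The first question was whether mRNA of the pump and of the lysosome differed between genotypes. In mutant cells the transcripts of 3 V0 subunits were lower by 0.34 to 0.50 on the log2 scale, while most V1 transcripts did not pass the test. Among the other genes LAMP1 was lower and LAMP2 higher. Of 38 genes tested, 5 were higher and 11 lower in mutant cells, and 22 did not pass (edgeR's quasi-likelihood test, Benjamini-Hochberg adjusted p under 0.05 over all genes). Over all 10756 genes tested 37.7% were called, 18.9% in each direction, so that the 42.1% called among the pump and lysosome genes lay near that background. Their median log2 fold change was -0.01, beside -0.0022 over all genes. In bulk RNA, fewer cells of a type and less RNA per cell cannot be told apart.

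Of the 16 pump genes 2 were higher and 5 lower, with a median of 0.05. The proton-carrying V0 sector held 3 of the 5 falls. ATP6V0C encodes the proteolipid c subunit that makes up most of the rotor ring, at chr16:2513726-2520218 (RefSeq, GRCh38.p14). Its mRNA stood at 101 and 107 CPM in mutant cells, against 140 and 148 CPM in wild-type cells. The groups did not overlap, and the log2 fold change was -0.47 (SE 0.072, adjusted p = 1.6e-09). ATP6V0B, at chr1:43974960-43978295, encodes the related c″ proteolipid of the same ring. It had 234 and 256 CPM in mutant cells and 319 and 304 CPM in wild-type cells, again without overlap, and changed by -0.34 (SE 0.053, adjusted p = 2.5e-09). ATP6V0D1, at chr16:67438019-67481157, encodes the d subunit that couples the central stalk to the ring. It had 86.2 and 92.3 CPM in mutant cells, against 114 and 135 CPM in wild-type cells, with the higher wild-type library standing well above the other. Its change was -0.50 (SE 0.076, adjusted p = 2e-09).

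The remaining V0 genes did not pass. ATP6V0A1 and ATP6V0A2 encode alternative a subunits, which form the proton half-channels and steer the pump to different membranes. ATP6V0A1 had 186 and 185 CPM in mutant cells and 194 and 179 CPM in wild-type cells, and ATP6V0A2 had 142 and 140 CPM in mutant cells and 149 and 145 CPM in wild-type cells. The small membrane subunit gene ATP6V0E1 had a log2 fold change of 0.21 (adjusted p = 0.11). Its mRNA stood at 55.1 and 53.8 CPM in mutant cells and at 48.5 and 46.2 CPM in wild-type cells. Groups thus did not overlap for ATP6V0A2 and ATP6V0E1 either. Separation of 2 from 2 libraries is therefore no mark of a call, and its share over all genes was not computed.

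In the V1 sector, 1 of 8 transcripts fell and 1 rose, with a median log2 fold change of 0.11. The fall was that of ATP6V1F (chr7:128862856-128865847), a subunit of the central stalk, at 160 and 159 CPM in mutant cells and 195 and 200 CPM in wild-type cells. Its libraries lay close together within each genotype, and the change was -0.31 (SE 0.062, adjusted p = 9.3e-06). The rise was that of ATP6V1C1, the stator subunit involved in the reversible joining of V1 and V0, at 0.27 (SE 0.11, adjusted p = 0.039). The catalytic subunit gene ATP6V1A (0.09, adjusted p = 0.31), its non-catalytic partner ATP6V1B2 (0.09, 0.52), the stalk genes ATP6V1D (0.31, 0.13), ATP6V1E1 (0.13, 0.19) and ATP6V1G1 (0.15, 0.19) and the regulatory ATP6V1H (0.02, 0.92) did not pass. The accessory proteins, which assist pump assembly, moved apart: ATP6AP1 changed by -0.18 (SE 0.058, adjusted p = 0.0058) and ATP6AP2, also known as the prorenin receptor, by 0.30 (SE 0.091, adjusted p = 0.0044). ATP6V1C1 no longer passed without wild-type mRNA replicate 1 (0.19), mutant replicate 1 (0.30) or mutant replicate 2 (0.25), ATP6AP1 without wild-type replicate 2 (-0.09) or mutant replicate 1 (-0.13), and ATP6AP2 without wild-type replicate 1 (0.24). With the spread between replicates assumed at a coefficient of variation of 10%, in place of the 2.25% estimated from these pairs, 0 of the 38 genes were called in mRNA, where 2.91% of all genes were, and DESeq2 called the falls of ATP6V0B, ATP6V0C, ATP6V0D1 and ATP6V1F alone, where it called 13.6% of all genes.

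**Figure D1:**
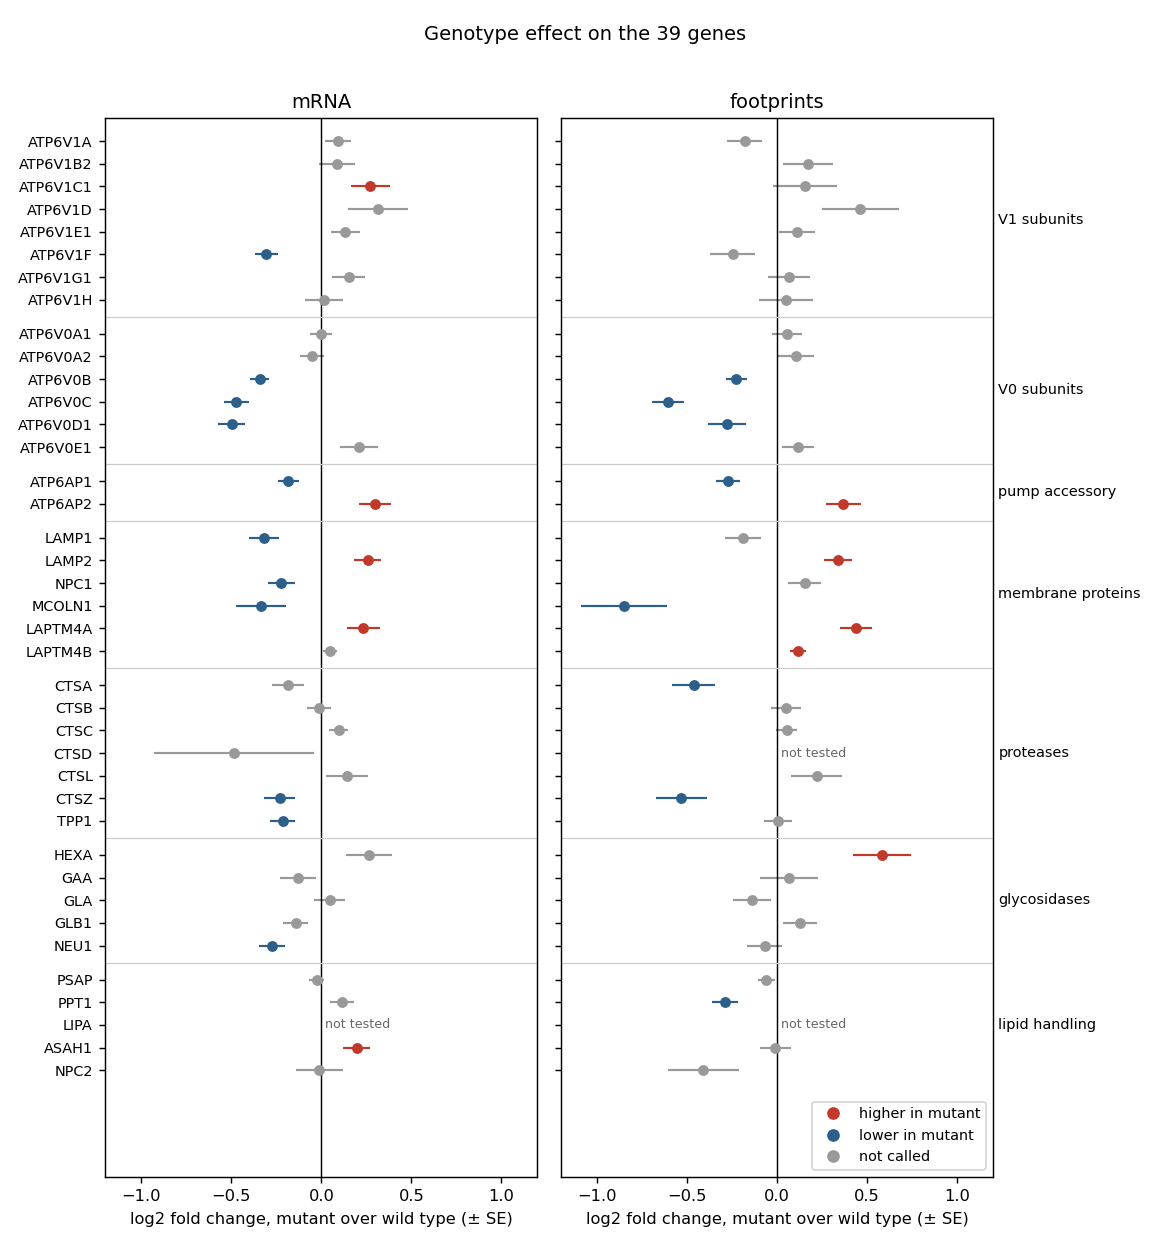
Log2 fold change of mRNA (left) and footprints (right), mutant over wild type, for the 39 genes in rows by role. Points are edgeR estimates, bars 1 standard error, and colour gives the call; 5 genes were higher and 11 lower in mRNA, 5 higher and 8 lower in footprints, and the V0 subunits ATP6V0B, ATP6V0C and ATP6V0D1 lie left of 0 in both panels.

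Outside the pump, 3 transcripts were higher and 6 lower in mutant cells of 22 tested, with a median of -0.02. The median of the pump exceeded that of the other genes by 0.07, a difference that ran between -0.01 and 0.16 when 1 library was left out. Of the 6 membrane proteins 5 were called. LAMP1 and LAMP2 are heavily glycosylated and together make up much of the lysosomal membrane protein, and LAMP2 also serves as a receptor in chaperone-mediated autophagy. LAMP1 mRNA stood at 82.8 and 80.8 CPM in mutant cells, against 109 and 96.6 CPM in wild-type cells, and changed by -0.32 (SE 0.081, adjusted p = 0.00055). LAMP2 mRNA stood at 116 and 111 CPM in mutant cells, against 92.5 and 97.1 CPM in wild-type cells, and changed by 0.26 (SE 0.077, adjusted p = 0.0037). Neither gene's groups overlapped, and the directions were opposite. LAMP1 no longer passed when wild-type mRNA replicate 1 was left out (-0.24), nor did LAMP2 without that library (0.23) or without mutant mRNA replicate 1 (0.22).

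The cholesterol exporter gene NPC1 changed by -0.22 (SE 0.074, adjusted p = 0.01) and the calcium channel gene MCOLN1 by -0.34 (SE 0.14, adjusted p = 0.04). Of a related pair of small membrane proteins, LAPTM4A changed by 0.23 (SE 0.091, adjusted p = 0.031), whereas LAPTM4B did not pass (0.05, adjusted p = 0.37). LAPTM4B had 699 and 696 CPM in mutant cells and 653 and 695 CPM in wild-type cells, with ranges barely separate. The MCOLN1 call was lost on leaving out any 1 of the 4 mRNA libraries (-0.38 to -0.30). Those of NPC1 (-0.23 to -0.19) and LAPTM4A (0.15 to 0.28) were kept only when the library left out was mutant mRNA replicate 2.

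Of 16 tested enzymes and lipid proteins 1 was higher and 3 were lower. The sialidase gene NEU1, whose product trims sialic acid from glycoproteins, had 111 and 110 CPM in mutant cells and 130 and 137 CPM in wild-type cells, without overlap (-0.28, SE 0.072, adjusted p = 0.00077). TPP1, a peptidase that removes tripeptides, had 117 and 128 CPM in mutant cells and 138 and 146 CPM in wild-type cells (-0.22, SE 0.069, adjusted p = 0.0074). The mutant and wild-type ranges of TPP1 were separate by a small margin. The carboxypeptidase gene CTSZ changed by -0.23 (SE 0.085, adjusted p = 0.02), and the acid ceramidase gene ASAH1 by 0.20 (SE 0.074, adjusted p = 0.024). Without wild-type mRNA replicate 2 none of the 4 passed (NEU1 -0.23, TPP1 -0.17, CTSZ -0.15, ASAH1 0.12), and without mutant replicate 1 only NEU1 did (TPP1 -0.15, CTSZ -0.17, ASAH1 0.17).

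The other tested enzymes and lipid proteins did not pass. The cysteine protease genes CTSB (-0.01, adjusted p = 0.9), CTSL (0.14, 0.34) and CTSC (0.10, 0.14) and the carboxypeptidase gene CTSA, which protects NEU1 and the product of GLB1 (-0.19, 0.082), were among them. So were the glycosidase genes HEXA (0.26, 0.09), GAA (-0.13, 0.3), GLA (0.05, 0.72) and GLB1 (-0.14, 0.095). The saposin precursor gene PSAP (-0.03, 0.67), the thioesterase gene PPT1 (0.12, 0.17) and the cholesterol carrier gene NPC2 (-0.01, 0.96) completed the list. NPC2, which hands cholesterol to NPC1, had 31.5 and 33.4 CPM in mutant cells and 30.2 and 34.5 CPM in wild-type cells.

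Aspartic protease and acid lipase transcripts were scarce. CTSD, the main aspartic protease of lysosomes in most cells, had 9 and 10 mRNA counts in mutant cells and 12 and 13 in wild-type cells, and 6 and 0 footprint counts in mutant cells and 14 and 12 in wild-type cells. LIPA, which frees cholesterol from its esters, had 4 and 2 mRNA counts in mutant cells and 2 and 0 in wild-type cells, and 1 and 0 footprint counts in mutant cells and 2 and 1 in wild-type cells. CTSD passed the filter on low counts in mRNA only (-0.48, adjusted p = 0.41) and LIPA in neither assay. By contrast CTSB had 137 and 149 mRNA CPM in mutant cells and 140 and 147 CPM in wild-type cells, and CTSL averaged 44.4 ± 3.25 CPM in mutant cells and 39.9 ± 1.26 CPM in wild-type cells (SD, n = 2 each). A floor of 3 counts corresponded to 0.673 to 0.887 CPM in mRNA libraries and to 1.55 to 4.92 CPM in footprint libraries, and it covers counting error only.

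The direction of the mRNA changes went with local gene density. Pump and lysosome genes that were higher in mutant cells had a median of 11 counted genes within 1 Mb, those lower had 54, those not called 16.5, and all tested genes 22. The median log2 fold change over all genes ran between 0.18 for those with up to 10 such neighbours and -0.23 for those with more than 60. After this trend was removed, 2 of the 38 genes were higher and 10 lower, beside 26.3% called over all genes, and 8 of the 16 calls were kept. The V0 falls were kept but smaller, at -0.24 for ATP6V0C, -0.24 for ATP6V0B and -0.28 for ATP6V0D1, whereas ATP6V1F stayed at -0.30, LAMP1 at -0.32 and LAMP2 at 0.35. The calls of ATP6AP1, ATP6AP2, ATP6V1C1, NEU1, TPP1, ASAH1, LAPTM4A and MCOLN1 were lost, and the sign of ATP6AP1 turned (0.0127). Newly called were ATP6V0A1, now higher (0.21), and GLB1 (-0.25), LAPTM4B (-0.11, a turned sign) and PSAP (-0.14), now lower. The part of gene density in these changes was not tested beyond that.

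**Figure D2:**
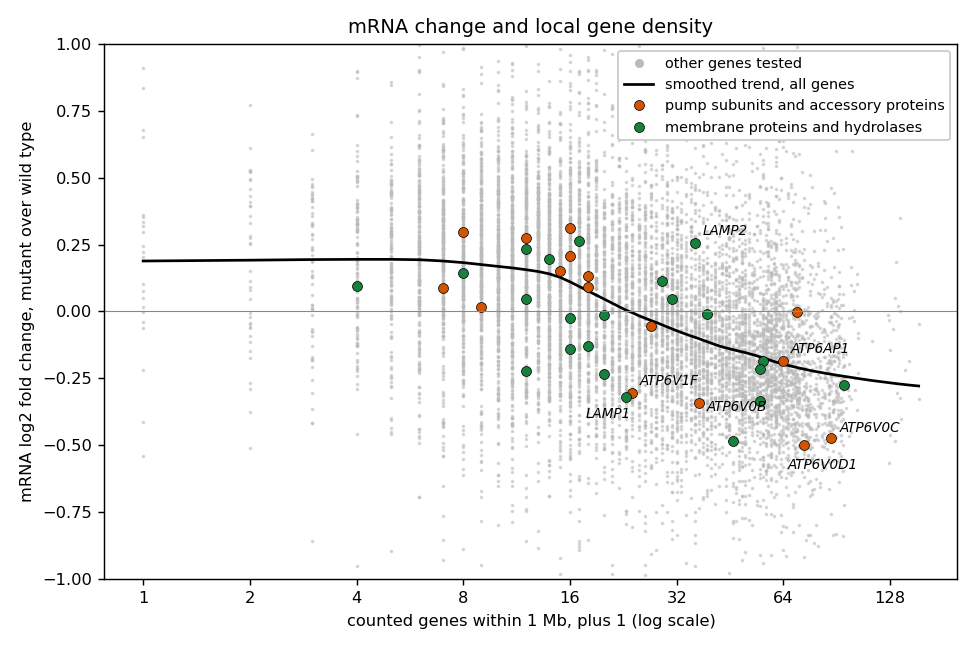
mRNA log2 fold change, mutant over wild type, against the number of counted genes within 1 Mb plus 1 (log scale). Grey points are other tested genes (84 lie beyond the vertical limits), the line is the smoothed trend over all genes, and coloured points are pump (orange) and lysosome (green) genes; ATP6V0C and ATP6V0D1 lie below the trend in gene-dense regions and LAMP2 above it.

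Promoters were examined for the letters that make up the core of the CLEAR motif. RefSeq windows of GRCh38.p14, from 250 bases before to 50 after the start, were matched by symbol for 28 of the 39 genes. The E-box CACGTG, which reads the same on both strands, was present in 9 of the 28 (32.1%), and in all 9 it lay within the longer TCACGTG or its reverse complement. CACGTG was found in 7.44% of 27305 genes and TCACGTG in 3.82%, and in 11.0% and 6.43% of the 7589 genes with a window that were also tested in both assays. The 9 genes were ATP6V1G1, ATP6V0B, ATP6V0D1, LAMP1, MCOLN1, CTSA, CTSD, GAA and NEU1. Of genes lower in mRNA 5 of 11 with a window held it, as did 4 of 14 that were not called and 0 of 2 that were higher. Of these, 6 stretches before the start are printed because they belong to genes that were lower in mutant mRNA or footprints, with the matches in capitals, including an adjoining T or A where 2 matches overlap. They lie at chr1:43974883-43974946 (+ strand), chr16:67481191-67481236 (- strand), chr13:113297027-113297236 (+ strand), chr19:7522563-7522623 (+ strand), chr20:45891273-45891334 (+ strand) and chr6:31862922-31862967 (- strand).
ATP6V0B: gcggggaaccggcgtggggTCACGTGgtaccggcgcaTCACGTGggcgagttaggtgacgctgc
ATP6V0D1: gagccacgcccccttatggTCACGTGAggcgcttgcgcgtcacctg
LAMP1: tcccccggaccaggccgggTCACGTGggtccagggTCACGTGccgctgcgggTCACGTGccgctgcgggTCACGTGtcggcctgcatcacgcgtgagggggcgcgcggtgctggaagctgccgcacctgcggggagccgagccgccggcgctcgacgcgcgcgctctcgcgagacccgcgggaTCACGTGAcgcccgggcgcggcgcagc
MCOLN1: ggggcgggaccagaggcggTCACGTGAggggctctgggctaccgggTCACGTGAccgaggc
CTSA: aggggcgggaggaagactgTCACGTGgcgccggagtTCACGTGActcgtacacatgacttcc
NEU1: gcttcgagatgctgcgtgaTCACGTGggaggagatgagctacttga

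The LAMP1 window held 6 copies of CACGTG, of which 5 are printed and the last spans the start itself. ATP6V0B, MCOLN1 and CTSA held 2 copies and ATP6V0D1 and NEU1 1 copy. ATP6V0C, which fell furthest among the proteolipid genes, had a window without CACGTG. A match is a run of letters in this window and says nothing of binding.

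The second question was whether ribosome occupancy followed. In footprints the same 3 V0 genes were lower in mutant cells, ATP6V0D1 not once the gene density trend was removed (-0.13), and no V1 gene passed the test. Of 37 genes tested, 5 were higher, 8 lower and 24 not called. Over all 9181 genes 21.2% were called, 10.3% higher and 10.9% lower, against 35.1% of the 37, a difference that was not tested. Called changes had a median size of 1.29-fold among the 37 and 1.43-fold over all genes. The part of footprint counts per gene in the share called was not tested. The median log2 fold change was 0.05, beside 0.0055 over all genes.

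The pump held 1 rise and 4 falls among its 16 genes, and its median was 0.06. ATP6V0C footprints stood at 209 and 212 CPM in mutant cells, against 309 and 329 CPM in wild-type cells. The mutant libraries nearly coincided, far below both wild-type ones, and the change was -0.61 (SE 0.089, adjusted p = 3.2e-08). This call was kept under 10 of 11 alternatives, the summed pairs being the exception. ATP6V0B had 772 and 698 CPM in mutant cells and 876 and 860 CPM in wild-type cells, without overlap (-0.23, SE 0.057, adjusted p = 0.0015). The third V0 gene, ATP6V0D1, was nearer the threshold (-0.28, SE 0.10, adjusted p = 0.043). ATP6V0B did not pass without mutant footprint replicate 2 (-0.17), nor ATP6V0D1 without either mutant replicate (-0.27 and -0.29) or wild-type replicate 2 (-0.21).

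The accessory proteins were again opposed in footprints. ATP6AP1 had 476 and 423 CPM in mutant cells, against 555 and 545 CPM in wild-type cells (-0.27, SE 0.067, adjusted p = 0.0013). ATP6AP2 had 223 and 217 CPM in mutant cells, against 177 and 165 CPM in wild-type cells (0.37, SE 0.098, adjusted p = 0.0031). Both genes had separate groups. Without mutant footprint replicate 2 ATP6AP1 did not pass (-0.21), and without replicate 1 ATP6AP2 did not (0.34). V1 footprints ranged in log2 fold change between -0.25 for ATP6V1F (adjusted p = 0.15) and 0.46 for ATP6V1D (adjusted p = 0.11), and at an unadjusted p under 0.05 only ATP6V1D passed.

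**Figure D3:**
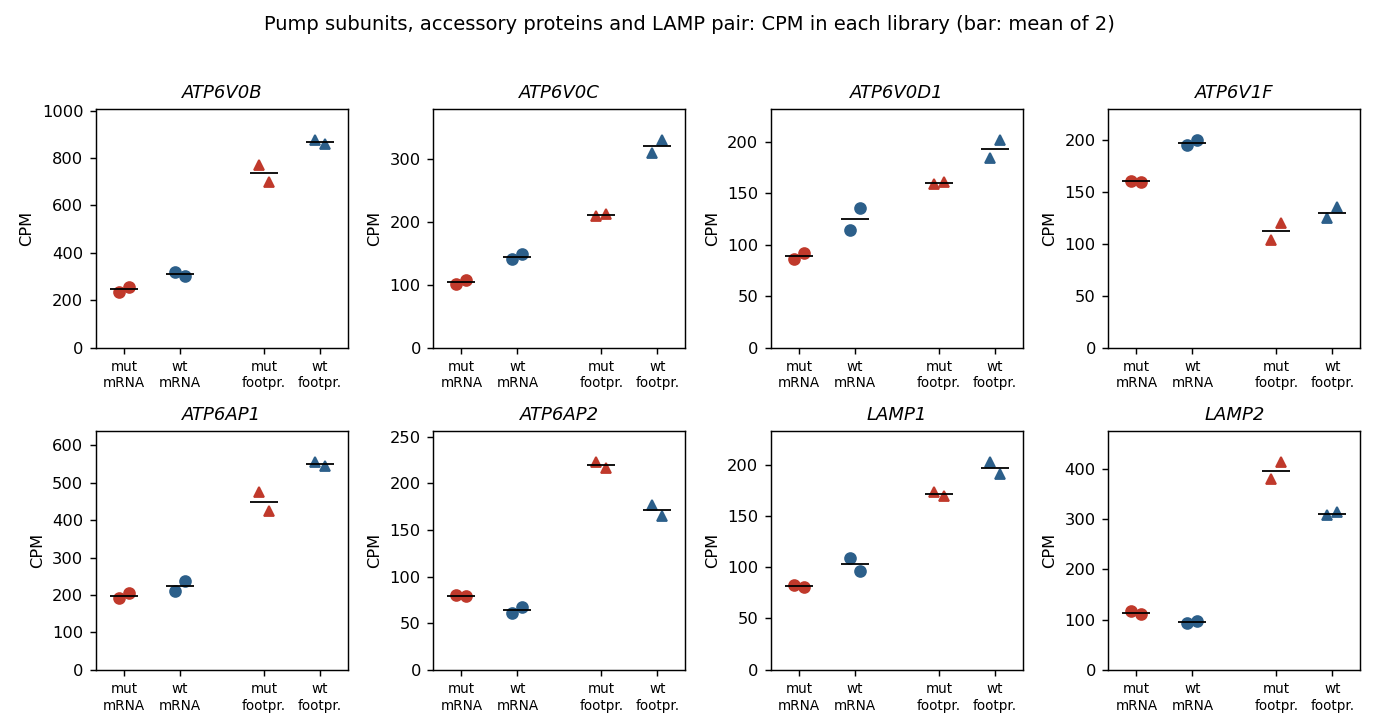
CPM of mRNA (circles) and footprints (triangles) in each mutant (red) and wild-type (blue) library for 6 pump genes and the LAMP pair, with bars at the mean of each pair. Mutant points lie below wild-type points for ATP6V0B, ATP6V0C, ATP6V0D1, ATP6V1F, ATP6AP1 and LAMP1 and above them for ATP6AP2 and LAMP2 in both assays; the footprint difference of ATP6V1F and LAMP1 did not pass the test.

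Outside the pump, 4 genes were higher and 4 lower in footprints of 21 tested, with a median of 0.0036. LAPTM4A, a small membrane protein of late endosomes and lysosomes, had 285 and 282 CPM in mutant cells and 224 and 197 CPM in wild-type cells (0.44, SE 0.090, adjusted p = 8.1e-05). LAMP2 had 380 and 414 CPM in mutant cells and 308 and 314 CPM in wild-type cells (0.34, SE 0.076, adjusted p = 0.0004). In both, the mutant libraries stood above both wild-type ones. LAPTM4A did not pass without mutant footprint replicate 1 (0.43), nor LAMP2 without replicate 2 (0.28). LAMP1, lower in mRNA, had 174 and 169 footprint CPM in mutant cells and 202 and 191 CPM in wild-type cells and did not pass (-0.19, adjusted p = 0.18).

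The hydrolase genes PPT1, CTSA and HEXA were called in footprints and not in mRNA. PPT1, which removes fatty acids from proteins and is mutated in infantile neuronal ceroid lipofuscinosis, had 360 and 407 CPM in mutant cells, against 459 and 466 CPM in wild-type cells (-0.29, SE 0.072, adjusted p = 0.0015). CTSA had 107 and 123 CPM in mutant cells, against 158 and 155 CPM in wild-type cells (-0.46, SE 0.12, adjusted p = 0.002). Wild-type values were tight and mutant values more spread in both genes. HEXA, a subunit of the hexosaminidase lost in Tay-Sachs disease, was higher in mutant cells (0.58, SE 0.16, adjusted p = 0.0048). CTSZ (-0.53, SE 0.14, adjusted p = 0.0027), MCOLN1 (-0.85, SE 0.24, adjusted p = 0.0055) and LAPTM4B (0.12, SE 0.043, adjusted p = 0.037) completed the calls. CTSZ and MCOLN1 were also lower in mRNA. MCOLN1 rested on 18 and 19 footprint counts in mutant cells, against 78 and 72 in the deeper wild-type libraries. Scaled to library size these were 18.8 and 31.2 CPM in mutant cells and 49.5 and 37.2 CPM in wild-type cells. LAPTM4B, with 2094 and 2060 CPM in mutant cells and 1911 and 1924 CPM in wild-type cells, had a small change that was kept under 2 of 11 alternatives and turned to -0.01 when the density trend was removed. Without mutant footprint replicate 1, PPT1 (-0.19), CTSA (-0.34), HEXA (0.49), CTSZ (-0.48) and MCOLN1 (-0.46) did not pass, and MCOLN1 also did not pass without wild-type footprint replicate 1 (-0.66). For CTSA, HEXA and LAPTM4B, called in footprints alone, the difference between the assays itself did not pass. It was -0.28 for CTSA (adjusted p = 0.32), 0.32 for HEXA (adjusted p = 0.43) and 0.07 for LAPTM4B (adjusted p = 0.6).

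With each footprint pair summed to 1 sample, and a coefficient of variation of 10% assumed because no replicate then remains, 0 of 38 genes were called (0.427% over all genes). The summed values were -0.61 for ATP6V0C, -0.23 for ATP6V0B, -0.28 for ATP6V0D1, -0.27 for ATP6AP1 and 0.37 for ATP6AP2. Outside the pump they were 0.44 for LAPTM4A, 0.33 for LAMP2, 0.11 for LAPTM4B, 0.58 for HEXA, -0.30 for PPT1, -0.47 for CTSA, -0.54 for CTSZ and -0.86 for MCOLN1. With that variation and 4 libraries ATP6V0C alone was called (3.14% over all genes), and DESeq2 called ATP6V0C and LAPTM4A (4.18%). Without mutant footprint replicate 1, the deeper of that pair, most calls were lost, here as over all genes. Removal of the density trend left 3 higher and 7 lower (17.7% over all genes): the calls of ATP6V0D1 (-0.13), ATP6AP1 (-0.13), ATP6AP2 (0.21) and LAPTM4B (-0.01) were lost, and PSAP was newly called lower (-0.14).

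The third question was whether footprints changed beyond mRNA, for which the genotype effect was compared between assays in 1 model over all 8 libraries. Of 37 genes 1 was higher and 1 lower in footprints per mRNA, beside 4.15% called over all 9166 genes (1.78% higher and 2.37% lower). No pump gene passed: their log2 differences lay between -0.27 for ATP6V1A (adjusted p = 0.23) and 0.22 for ATP6V0D1 (adjusted p = 0.41), with a median of 0.05. At an unadjusted p under 0.05, ATP6V1A alone of the pump passed. Removal of the density trend kept both calls (3.87% over all genes), whereas DESeq2 (1.36%) and an assumed variation of 10% (0.142%) gave 0. For the V0 genes the 95% intervals of the difference ran between -0.36 and 0.09 for ATP6V0C, between -0.04 and 0.27 for ATP6V0B and between -0.04 and 0.48 for ATP6V0D1.

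PPT1 fell in footprints per mRNA. Its mRNA stood at 156 and 143 CPM in mutant cells and at 136 and 140 CPM in wild-type cells, while its footprints, given above, were lower in mutant cells. The assays thus moved apart, by -0.40 (SE 0.097, adjusted p = 0.0055). The call was kept under 12 of 15 alternatives and was lost with DESeq2, with an assumed variation of 10% and without mutant footprint replicate 1 (-0.30). With footprint pairs summed the value was -0.41, but its spread then came from the mRNA libraries alone. PPT1, at chr1:40071461-40097252, overlaps the protein-coding gene CAP1, and the strand setting of the counting is not given, so reads of the pair cannot be assigned with certainty.

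NPC1 rose in footprints per mRNA. Its mRNA had 102 and 106 CPM in mutant cells, against 121 and 122 CPM in wild-type cells, and its footprints had 243 and 227 CPM in mutant cells, against 215 and 210 CPM in wild-type cells. The mRNA was lower in both mutant libraries and the footprints higher, and the difference was 0.38 (SE 0.12, adjusted p = 0.045). Only 4 of 15 alternatives kept the call, although the value stayed between 0.31 and 0.41 (0.37 with footprint pairs summed). NPC1, at chr18:23506184-23586506, overlaps the coding gene RMC1. NPC2, its partner in cholesterol export, had 37.7 and 41.0 footprint CPM in mutant cells and 46.3 and 56.4 CPM in wild-type cells, and its difference of -0.40 did not pass (adjusted p = 0.4).

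**Figure D4:**
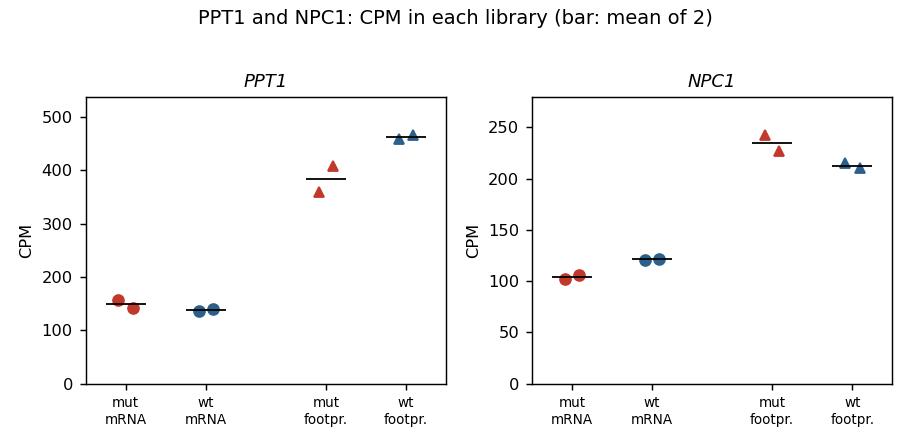
CPM of PPT1 and NPC1 mRNA (circles) and footprints (triangles) in each mutant (red) and wild-type (blue) library, with bars at the mean of each pair. PPT1 footprints were lower in mutant cells while its mRNA did not pass the test, and NPC1 mRNA was lower in mutant cells while its footprints did not pass.

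The level of footprints per mRNA, as against its change, was high for most of these genes in both genotypes. The ratio was set against the median of all 9166 genes, with 34 of 37 genes above that median in mutant cells and 36 in wild-type cells. The median of the 37 was 2.01 times that of all genes in mutant cells and 1.90 times in wild-type cells, and 20 of the 37 in mutant and 19 in wild-type cells lay among the top 10% of all genes. This level depends on transcript and coding length and on how reads were counted, and lengths were not used here.

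Within the pump, ATP6V0E1 had the highest log2 level among the 37 genes, 2.18 in mutant and 2.27 in wild-type cells. Its CPM was 55.1 and 53.8 in mutant mRNA and 48.5 and 46.2 in wild-type mRNA, against 272 and 228 in mutant footprints and 235 and 235 in wild-type footprints. ATP6V1F stood apart at the low end, at -0.54 in mutant and -0.64 in wild-type cells, with fewer footprint than mRNA CPM in every library. Medians by role were 0.68 in mutant and 0.67 in wild-type cells for V1 subunits, 0.91 and 0.86 for V0 subunits, and 1.35 and 1.18 for the membrane proteins. Proteases had 1.03 in mutant and 0.97 in wild-type cells, glycosidases 0.92 and 0.67, and lipid handling 1.19 and 1.29. Other lysosomal hydrolases outside the 39 had medians of 0.54 in mutant and 0.56 in wild-type cells, and transcription regulators of lysosomal genes -0.38 and -0.44.

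**Figure D5:**
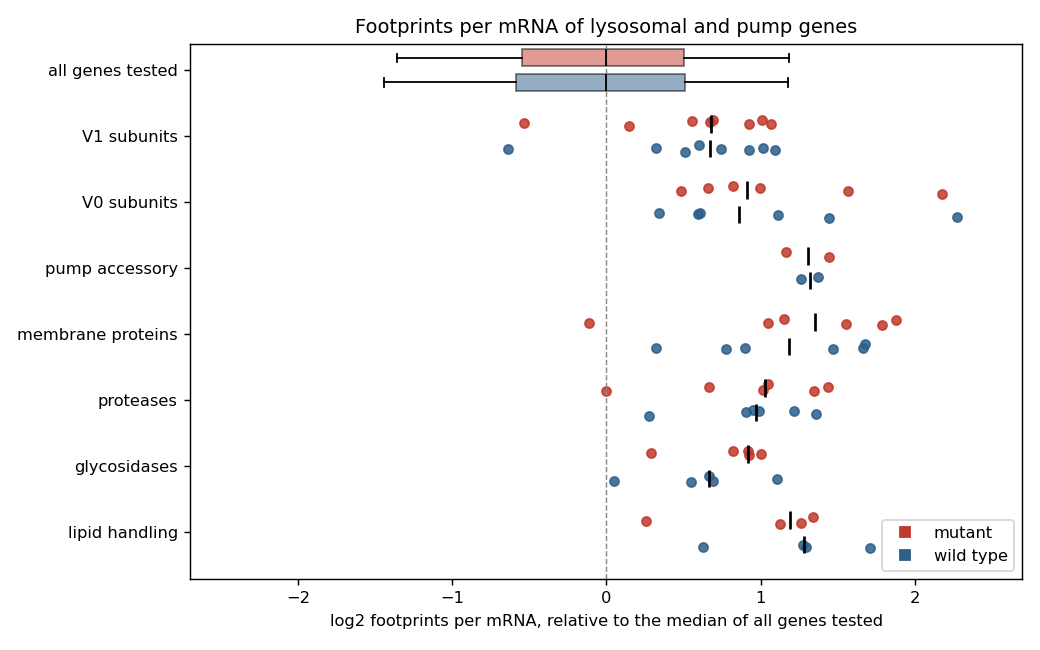
Log2 footprints per mRNA relative to the median of all tested genes, in mutant (red, upper of each pair) and wild-type (blue) cells. Boxes show all genes with whiskers at the 5th and 95th percentiles, points are the 37 genes by role and black ticks their medians; 34 points in mutant and 36 in wild-type cells lie right of 0.

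Wider lists of the pathway were read from the same tests, with the backgrounds of 37.7%, 21.2% and 4.15% given above. Their genes are given from the edgeR fits to all libraries alone. Whether their calls hold with footprint pairs summed, a library left out or the density trend removed is not shown. Of 10 other pump subunits and paralogs 4 were tested in mRNA, and 3 were lower. RNASEK, a small membrane protein found with the pump, had 72.4 and 70.1 mRNA CPM in mutant cells and 98.2 and 101 CPM in wild-type cells (-0.48, adjusted p = 2.1e-07). Its footprints had 207 and 241 CPM in mutant cells and 367 and 394 CPM in wild-type cells (-0.79, adjusted p = 5e-13). ATP6V0E2, the paralog of ATP6V0E1, was lower in mRNA (-0.41, adjusted p = 0.0074) and in footprints (-1.06, adjusted p = 0.00038). Of 11 tested genes of pump assembly and regulation 3 were higher and 1 lower in mRNA; DMXL2, a rabconnectin that promotes assembly, was higher (0.35, adjusted p = 1.6e-06) and ALDOA, a glycolytic enzyme that binds the pump, lower (-0.29, adjusted p = 7.5e-15). In footprints DMXL2 again rose (0.56, adjusted p = 0.0094) and ALDOA fell (-0.15, adjusted p = 0.0036).

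Other hydrolases and their activators included 2 higher and 8 lower transcripts of 33 tested, with a median of -0.13. DPP7, a dipeptidyl peptidase, was lower (-0.43, adjusted p = 1.4e-13), as was the phospholipase-B-like PLBD2 (-0.32, adjusted p = 7.1e-05). In footprints 1 of 32 was higher, AGA, which cleaves asparagine-linked sugars (0.66, adjusted p = 0.013), and 2 were lower. Other lysosomal membrane proteins had 2 higher and 7 lower transcripts of 24, among them the lipid transporter ABCA2 (-0.46, adjusted p = 2.9e-13) and the chloride-proton exchanger CLCN7 (-0.38, adjusted p = 3.5e-09). The tetraspanin CD63 had 373 and 388 mRNA CPM in mutant cells and 387 and 381 CPM in wild-type cells, with 827 and 748 footprint CPM in mutant cells and 650 and 655 CPM in wild-type cells. It was higher in footprints per mRNA (0.30, adjusted p = 0.0076).

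Sorting of hydrolases had 5 higher and 5 lower transcripts of 18, including the retromer subunit VPS29 (0.53, adjusted p = 2.4e-06) and the adaptor GGA3 (-0.28, adjusted p = 0.00072). Of 8 transcription regulators of lysosomal genes 3 fell in mRNA, among them TFE3 (-0.30, adjusted p = 0.0023). Footprints of TFE3 did not fall, at 65.9 and 59.1 CPM in mutant cells and 54.6 and 54.3 CPM in wild-type cells (0.22, adjusted p = 0.39). The difference between its assays did not pass (0.51, adjusted p = 0.13). TFEB had 14.8 and 16.6 mRNA CPM in mutant cells and 14.5 and 13.0 CPM in wild-type cells and did not pass (0.20, adjusted p = 0.45), nor did MITF (-0.09, adjusted p = 0.59). Among 11 genes of Ragulator, the Rag proteins and BORC (lysosome positioning) 1 was higher and 3 lower in mRNA. LAMTOR3, a Ragulator subunit, was higher (0.83, adjusted p = 0.00021), and BORCS6, a subunit of the complex that moves lysosomes, was lower (-1.25, adjusted p = 4e-06) at 7.87 and 3.82 CPM in mutant cells and 15.1 and 13.7 CPM in wild-type cells.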

How the data were processed

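Human cells labelled THP-1 were assayed by RNA-seq and ribosome profiling, 2 libraries per genotype and assay. The deposited files hold raw counts, whole numbers per Ensembl gene ID, made by the authors with tools that the submitters' processing notes list as cutadapt, Trimmomatic, Bowtie2, STAR and featureCounts, on hg38/GRCh38. Per the labels' protocols, footprints were made with RNase I and depleted of ribosomal RNA. Annotation release, strand setting, counted feature and the treatment of reads with several matches were not given in the sources used here. For that reason counts are uncertain for 8 of the 39 genes that another protein-coding gene overlaps (ATP6V1D, NPC1, CTSA, GLA, GLB1, PPT1, LIPA, NPC2) and for 8 with named pseudogenes (ATP6V1E1, ATP6V1F, ATP6V1G1, ATP6V0C, ATP6V0E1, LAMP1, LAPTM4B, CTSL).

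Of 20453 gene IDs 20407 matched a symbol, as did all 39 genes. Coordinates and promoters are RefSeq's (GRCh38.p14), matched by symbol. Tests used edgeR 4.0.16 (R 4.3.3) (glmQLFit with legacy set to FALSE, glmQLFTest), with TMM factors within each assay, filterByExpr (minimum count 10) and Benjamini-Hochberg adjustment over all genes of a comparison. A gene was called at an adjusted p under 0.05. Footprints per mRNA were the interaction of genotype and assay over genes kept in both. CPM use the TMM-scaled sum of the kept genes. Gene density is the number of counted genes within 1 Mb, and its trend was fitted by lowess (span 0.3) and removed as an offset. Alternatives were RLE factors, no filter on low counts, DESeq2 1.42.0, a replicate block, an assumed coefficient of variation of 10%, the density trend removed, each library left out and, chosen after seeing the data, footprint pairs summed. The procedure was run on simulated counts with independent replicates and a spread near that estimated here. Such counts cannot show how it behaves where the true spread between cultures is larger. Same-numbered replicates deviated together by a correlation of 0.11 in mRNA and 0.09 in footprints, which with 1 pair each does not show that the numbers pair the libraries.

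The 39 genes, their groups and the wider lists were chosen with earlier results of these data known, so their counts are read beside those of all genes, and no test was run over a list. Genes were given with the value of each library where, among called genes, they had the smallest p (up to 4 of the pump and 4 of the others per comparison), together with related pairs; up to 2 called genes of each wider list were named per comparison. TFEB and MITF were named outside that rule, after their values were seen. 1 gene that the rule names is not reported here. The mutant footprint libraries, the shallowest, give the least precise values. Floors cover counting error only. Intervals cover the spread between libraries alone, which was no more than counting error for footprints and may be technical for mRNA. Reads carried no molecular identifiers.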

Additional observations from a re-analysis of the deposited data

Results flagged for a closer look

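The genotype effect on footprints differed from that on mRNA for 2 of the 37 genes tested in both assays, by the interaction of genotype and assay in edgeR. For PPT1 the difference was -0.40 (log2, adjusted p = 0.0055): footprints stood at 360 and 407 CPM in mutant cells and 459 and 466 CPM in wild-type cells, and mRNA at 156 and 143 CPM in mutant cells and 136 and 140 CPM in wild-type cells. For NPC1 it was 0.38 (adjusted p = 0.045), with mRNA lower and footprints higher in both mutant libraries. Groups of 2 libraries are too small for a check for single libraries far from the others.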

How the results depend on the processing

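RLE factors and the replicate block kept all 16 mRNA, 13 footprint and 2 footprint-per-mRNA calls; the block moved the calls over all genes to 4168, 2076 and 495 (4060, 1950 and 380 without it). Without a filter on low counts 3 genes were higher and 8 lower in mRNA, 4 higher and 7 lower in footprints, and 0 higher and 1 lower (PPT1) in footprints per mRNA, beside 23.6%, 12.0% and 2.56% called over all genes. DESeq2 called 0 higher and 4 lower in mRNA, 1 higher and 1 lower in footprints and 0 in either direction in footprints per mRNA, and 1458, 384 and 125 over all genes. An assumed variation of 10% gave 0 higher and 0 lower in mRNA, 0 higher and 1 lower in footprints (ATP6V0C) and 0 in footprints per mRNA, and 313, 288 and 13 over all genes. Summed footprint pairs, with 10% variation also assumed, gave 0 higher and 0 lower in footprints and 43 calls over all genes. In footprints per mRNA, with the spread taken from the mRNA libraries alone, they gave 0 higher and 1 lower (PPT1). With the density trend removed 2 were higher and 10 lower in mRNA (26.3% over all genes) and 3 higher and 7 lower in footprints (17.7%), and the pump median minus that of the other genes became 0.00315 in footprints (0.0566 before). Among genes called before or after that removal, signs turned for ATP6V0A1 mRNA (0.21), ATP6AP1 mRNA (0.0127), LAPTM4B mRNA (-0.11) and LAPTM4B footprints (-0.0142). Turned signs of genes called in neither fit are not listed. The cause of these losses was not tested. Leaving out 1 library gave 1 to 5 higher and 5 to 10 lower in mRNA, 1 to 4 higher and 3 to 8 lower in footprints, and 0 to 1 higher and 0 to 1 lower in footprints per mRNA. The pump median minus that of the others ran between -0.0133 and 0.162 in mRNA, between -0.0694 and 0.175 in footprints and between -0.0938 and 0.0493 in footprints per mRNA. Over all genes, mRNA calls numbered 2280 without wild-type mRNA replicate 2 and 2653 without mutant mRNA replicate 1, and footprint calls 1155 without wild-type footprint replicate 2, 274 without mutant footprint replicate 1 and 950 without mutant footprint replicate 2. Footprint depth in mutant cells limits the test of footprints per mRNA.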

Other observations

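Further genes of the wider lists were called in footprints or in footprints per mRNA, again given from the edgeR fits to all libraries alone. Of 8 tested transcription regulators of lysosomal genes only FNIP1, a partner of folliculin, was called in footprints, at 81.6 and 75.5 CPM in mutant cells and 53.3 and 49.6 CPM in wild-type cells (edgeR, log2 fold change 0.63, adjusted p = 0.0024), with mRNA at 68.8 and 75.0 CPM in mutant cells and 65.3 and 61.4 CPM in wild-type cells (0.18, adjusted p = 0.11). The difference between its assays did not pass (0.44, adjusted p = 0.19). RRAGA, a Rag GTPase, was lower in mRNA, at 36.2 and 39.8 CPM in mutant cells and 48.5 and 50.0 CPM in wild-type cells (-0.38, adjusted p = 0.0041), and was just called in footprints per mRNA (0.63, SE 0.20). Its Ragulator partner LAMTOR5 had 49.2 and 42.7 footprint CPM in mutant cells and 67.3 and 63.6 CPM in wild-type cells (-0.48, adjusted p = 0.041). The sorting adaptors AP1B1 (-0.51, adjusted p = 0.00085) and GGA3 (-0.68, adjusted p = 0.002) were lower in footprints, and the retromer subunit VPS29 was higher (0.48, adjusted p = 0.00053).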
